A study of Homo sapiens with 15 samples.

Results

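Cholesterol homeostasis was followed through 32 genes chosen by symbol, which make, move, store or export cholesterol or control those steps. All 32 were present, among 60651 genes in the depletion table and 23792 genes in the overexpression table. By role they comprise 4 genes of SREBP2 control, 8 of the mevalonate steps, 11 of the sterol steps, 4 of transport and storage, and 5 for the LXR receptors and their targets. Not every enzyme of the pathway is among them. All 32 passed the low-count filter of the depletion fit. In the overexpression fit 31 passed, and ABCG1 did not because its level was below the minimum.

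All libraries carry the label MDA-MB231, a line from human breast cancer that lacks hormone receptors, and address what depletion or excess of KIF20A does to gene expression. The KIF20A protein is a motor needed late in cell division, when the daughter cells part. The depletion dataset holds the groups SG1 and SG3, both labelled KIF20A knockdown, and CTRL, labelled WT. The overexpression dataset holds KIF20A_OE, labelled KIF20A overexpression, and EV, also labelled WT. Each group has 3 libraries, 15 in all. The labels give no treatment, time, vector, guide sequence or clone, and do not say whether replicates were separate cultures, so each p-value measures only the spread between these libraries, which may be technical.

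Cells sense cholesterol in the membrane of the endoplasmic reticulum. When sterol is scarce, SCAP escorts the transcription factor SREBP2 (gene SREBF2) to the Golgi for cleavage, and its released part switches on the synthesis and uptake genes. INSIG proteins hold SCAP back when sterol is plentiful. When oxysterols accumulate, the LXR receptors switch on the exporters ABCA1 and ABCG1 and the ubiquitin ligase MYLIP, also called IDOL, which marks lipoprotein receptors for degradation. Synthesis and efflux programmes are therefore usually described as opposed arms.

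Library totals were 40895819 to 51018667 counts in the depletion dataset and 15971297 to 22182293 fragments in the overexpression dataset. KIF20A itself had 123, 147 and 91.5 CPM (counts per 1000000, with TMM library sizes) in SG1, 86.3, 60.8 and 79.1 CPM in SG3, and 154, 171 and 160.2 CPM in CTRL. The groups did not overlap, but the log2 fold change of -0.42 ± 0.18 (SE) for SG1 and -1.10 ± 0.18 for SG3 had edgeR adjusted p-values of 0.913 and 0.33. With DESeq2 the SG3 difference passed (adjusted p of 0.000186). The first principal component held 37.6% of the variance and did not follow the groups: CTRL replicate 3 scored 16.02 and the other CTRL libraries -18.68 and -16.06, while SG3 replicate 1 scored 23.42 and the other SG3 libraries -22.57 and -18.97. The SG1 libraries scored 10.17 to 15.17. Mitochondrially encoded mRNA, read as a sign of RNA quality, made up 1.47 to 3.41% of counts in SG1, 0.975 to 2.03% in SG3 and 0.962 to 2.55% in CTRL. Markers of leukocytes summed to 5.80 to 7.34 CPM in SG1, 5.93 to 7.58 in SG3 and 8.74 to 10.7 in CTRL, nearly all of it CD14, while CD3E was at 0. Of 8 fibroblast markers 5 were tested, with a median log2 fold change of -0.51 in SG1 and -0.04 in SG3. Of these, 4 were negative in SG1 and 1 was positive (COL1A1, 0.11). PDGFRB and C1S lay below CTRL in SG1 without overlap, with C1S low there at 0.911 to 1.35 CPM. COL1A2 spanned 7.43 to 40.5 CPM in SG1 and overlapped CTRL. For SG3, 3 were negative and 2 positive, and 1 lay below CTRL without overlap. Fibroblast markers summed to 32.8 to 61.9 CPM in SG1, 35.95 to 57.4 in SG3 and 51.5 to 60.15 in CTRL, with DCN at 0. The part of these markers in the results was not tested.

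The libraries labelled KIF20A_OE go against their cell line label. Expression of KIF20A was 1348, 269 and 896 FPM (fragments per 1000000) in KIF20A_OE and 101, 143 and 124 FPM in EV. Of 5 mesenchymal markers of MDA-MB-231, CD44 and AXL were near 0 there: CD44 had 0.125 to 1.23 FPM in KIF20A_OE and 523 to 788 FPM in EV, and AXL had 0.7495 to 0.811 FPM in KIF20A_OE and 811 to 1107 FPM in EV. VIM had 347 to 776, MSN 247 to 344 and CAV1 13.8 to 26.5 FPM in KIF20A_OE. All 5 were called lower by limma, and their summed level was 610 to 1084 FPM in KIF20A_OE and 6059 to 8014 FPM in EV. Every KIF20A_OE value below is from these libraries, and an effect of KIF20A cannot be told apart from a difference between cell populations.

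The promoters of SREBF2, INSIG1 and ABCA1 are shown because the results turn on these genes and they carry a recognition motif of SREBP2 (SREBF2 and INSIG1) or of LXR (ABCA1). They are the 250 bases before the RefSeq start of each gene (GRCh38.p14), at chr22:41832855-41833104 on the plus strand for SREBF2, chr7:155297628-155297877 on the plus strand for INSIG1, and chr9:104928156-104928405 on the minus strand for ABCA1. Capitals mark the matched motif.
SREBF2: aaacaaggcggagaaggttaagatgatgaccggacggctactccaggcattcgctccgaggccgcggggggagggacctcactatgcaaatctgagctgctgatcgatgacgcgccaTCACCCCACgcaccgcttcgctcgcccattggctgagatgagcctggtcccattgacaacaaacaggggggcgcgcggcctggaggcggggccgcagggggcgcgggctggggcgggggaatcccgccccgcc
INSIG1: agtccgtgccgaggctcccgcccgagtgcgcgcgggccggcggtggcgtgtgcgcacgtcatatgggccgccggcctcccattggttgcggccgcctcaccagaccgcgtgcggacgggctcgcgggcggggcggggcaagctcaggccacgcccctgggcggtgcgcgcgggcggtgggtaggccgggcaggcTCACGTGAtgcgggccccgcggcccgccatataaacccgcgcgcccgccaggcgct
ABCA1: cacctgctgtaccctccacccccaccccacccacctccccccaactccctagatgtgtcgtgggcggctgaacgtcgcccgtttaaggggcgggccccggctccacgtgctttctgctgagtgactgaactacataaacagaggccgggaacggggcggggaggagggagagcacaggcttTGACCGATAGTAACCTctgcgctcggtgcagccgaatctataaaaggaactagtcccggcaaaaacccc
The SREBF2 capitals are the sterol element TCACCCCAC, 133 bases before the start. The INSIG1 capitals are the E-box TCACGTGA, a form that SREBPs also bind, 56 bases before the start. The ABCA1 capitals are the reverse complement of a DR4, the LXR motif, searched as AGGTNA and NGGTCA separated by 4 bases, and begin 69 bases before the start. Each motif was searched on both strands in windows of 300 bases, 250 before to 50 after the start, over 35116 RefSeq promoters, of which 40 belong to 28 of the 32 genes. ABCG1, ACAT2, FDFT1 and SQLE had no entry. The sterol element was in 0.43% of all promoters and in 1 of the 28 genes, the E-box in 0.98% and 1 gene, and the DR4 in 0.094% and 1 gene. The CCAAT box, bound by NF-Y, was in 34.6% of all promoters and in 21 of the 28 genes. A gene counted if any of its promoters matched, so the gene counts are not like for like with the shares of promoters. The matched motifs do not overlap each other. These matches describe letters, not occupied sites.

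Compared per length, as CPM per kilobase of merged exons, NPC2 and SOAT1 led the list in all 3 depletion groups. NPC2, a lysosomal cholesterol carrier, averaged 39.1 CPM per kb in SG1, 42.2 in SG3 and 46.5 in CTRL. SOAT1, which esterifies cholesterol for storage in droplets, averaged 33.0 CPM per kb in SG1, 28.9 in SG3 and 29.4 in CTRL. At the other end, ABCG1 averaged 0.230, 0.266 and 0.699 CPM per kb in SG1, SG3 and CTRL, and CYP51A1, the lanosterol demethylase, averaged 0.446, 0.761 and 0.873. In the overexpression dataset the order differed at the top: SQLE led in KIF20A_OE at 33.6 FPM per kb, against 9.49 in EV, while NPC2 led in EV at 61.9 FPM per kb, against 23.3 in KIF20A_OE. CYP51A1 shares 83.2% of its exonic length with other annotated genes, ACAT2 52.3% and GGPS1 41.0%, and the handling of shared reads is not stated, so these 3 genes have uncertain values.

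**Figure D1:**
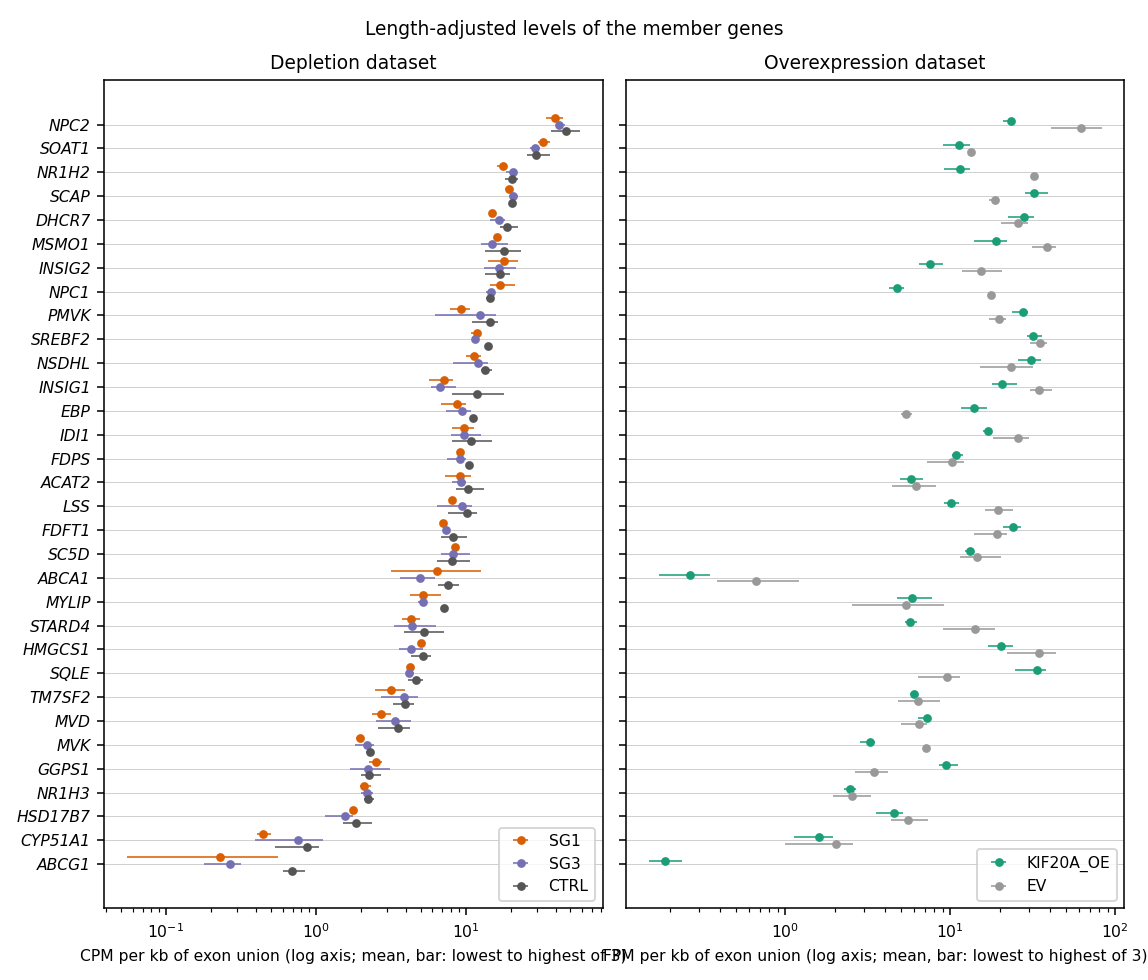
Mean level of each gene per kilobase of merged exons on a log axis, in CPM for the depletion groups (left) and FPM for the overexpression groups (right); bars run from the lowest to the highest of 3 libraries. NPC2 is at the top of the depletion groups, 39.1 to 46.5 CPM per kb, and ABCG1 at the bottom, 0.230 to 0.699; ABCG1 in EV is listed at 0 and has no point.

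In the depletion dataset no gene of the list passed the test across all genes, in either knockdown group. The signs leaned downward in synthesis and efflux genes alike: 27 of 32 genes had a negative log2 fold change in SG1 and 28 of 32 in SG3, each against the same CTRL libraries. The median over the list was -0.21 in SG1 and -0.15 in SG3, beside a median over all 16786 genes tested of -0.0019 and -0.012. Without CTRL replicate 3 the SG3 median was -0.085, and without SG3 replicate 1 it was -0.079. Neither knockdown group overlapped CTRL for SREBF2, for the LXR targets ABCG1 and MYLIP, or for FDPS.

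The edgeR quasi-likelihood test called 0.0% of all genes at an adjusted p under 0.05 in each of the 4 depletion comparisons, and 0 of the 32. At an unadjusted p under 0.05 it had 4.59% of all genes in SG1 against CTRL and 6 of the 32, or 18.8%, all lower: INSIG1, PMVK, CYP51A1, DHCR7, ABCG1 and MYLIP. In SG3 against CTRL it had 1.19% of all genes and 4 of the 32, or 12.5%, all lower: SREBF2, INSIG1, ABCG1 and MYLIP. For both knockdown groups averaged it had 1.76% of all genes and 4 of the 32: SREBF2, INSIG1, ABCG1 and MYLIP. In SG1 against SG3 it had 4.74% of all genes and none of the 32. Single libraries move these counts: there was 1 in SG1 without SG1 replicate 3, while in SG3 there were 0 when CTRL replicate 3 was dropped, 1 when CTRL replicate 2 was and 2 when it was SG3 replicate 3. The list was chosen with earlier results of these data known, so these shares are descriptions.

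Separation of the libraries gave a similar picture. All SG1 libraries lay below all CTRL libraries in 7.21% of all genes and above them in 4.96%. Of the 32, 9 lay below (SREBF2, MVK, PMVK, FDPS, CYP51A1, EBP, DHCR7, ABCG1 and MYLIP), or 28.1%, and 0 above. All SG3 libraries lay below CTRL in 2.38% of all genes and above in 2.28%, and of the 32, 5 lay below (SREBF2, FDPS, ABCA1, ABCG1 and MYLIP), or 15.6%, and 0 above. With both knockdown groups pooled, 0.441% of all genes lay below CTRL and 0.536% above, and of the 32, 4 lay below (SREBF2, FDPS, ABCG1 and MYLIP) and 0 above. Between SG1 and SG3, 6.26% of all genes lay higher in SG1 and 4.55% lower without overlap, and none of the 32 did either.

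**Figure D2:**
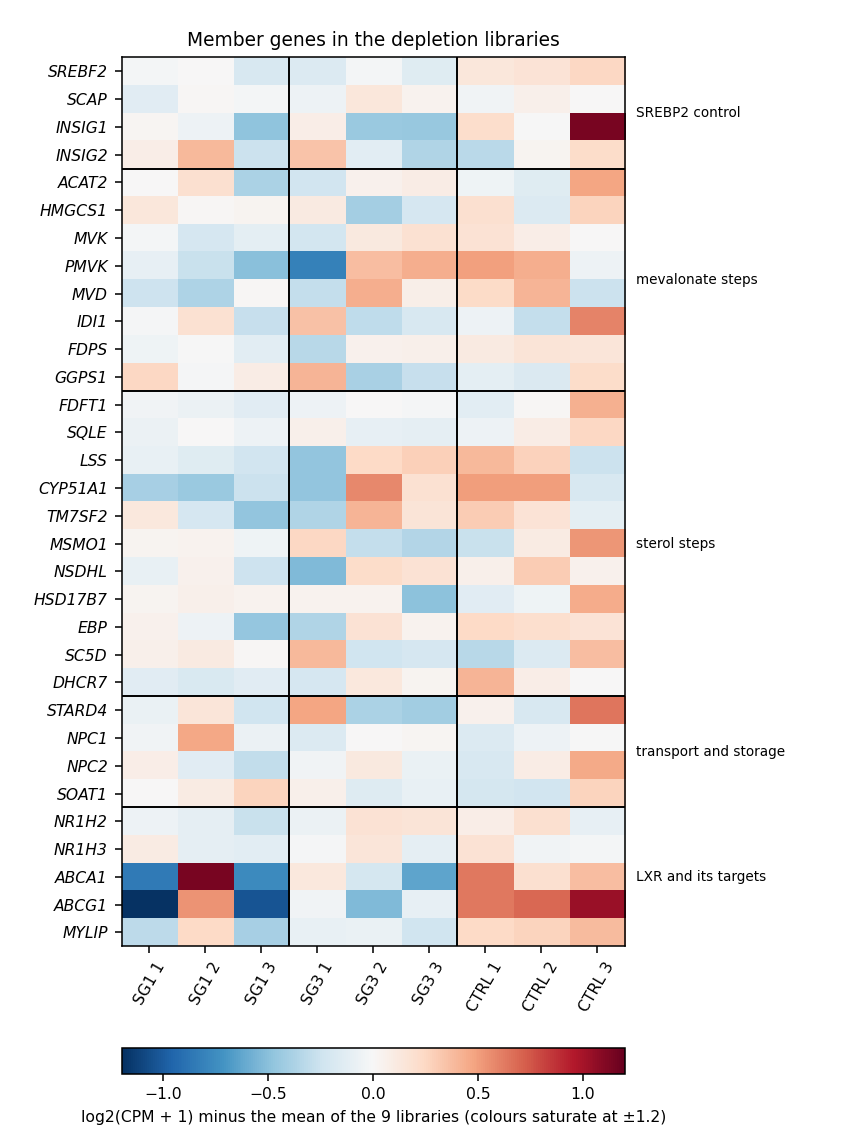
Level of each gene in each depletion library as log2(CPM + 1) minus its mean over the 9 libraries, with red above and blue below the mean; rows are grouped by role and columns by group. ABCG1 and ABCA1 are blue in SG1 replicates 1 and 3 and red in SG1 replicate 2, and INSIG1 is reddest in CTRL replicate 3.

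SREBF2 (ENSG00000198911, chromosome 22, 41833079 to 41907308, GRCh38) encodes the master regulator of synthesis and uptake. It had 92.1, 93.9 and 81.6 CPM in SG1, 83.6, 91.9 and 84.5 CPM in SG3, and 103, 105 and 111 CPM in CTRL. Every knockdown library was below every CTRL library, and the replicate spread was small in each group. The log2 fold change was -0.25 ± 0.12 (SE) in SG1 and -0.29 ± 0.12 in SG3, with edgeR adjusted p-values of 0.913 and 1. For the 6 knockdown libraries against CTRL it was -0.27 ± 0.11, with an exact permutation p of 0.0119, two-sided and unadjusted, which is the smallest that 6 against 3 libraries can give. The edgeR adjusted p for that comparison was 1, and SG1 differed from SG3 by 0.04 ± 0.12 with adjusted p of 0.957.

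INSIG1 (ENSG00000186480, chromosome 7, 155297776 to 155310235) is both a brake on SREBP2 processing and one of its target genes. It had 29.9, 28.2 and 20.8 CPM in SG1, 31.3, 21.4 and 21.3 CPM in SG3, and 34.3, 29.4 and 66.1 CPM in CTRL. CTRL replicate 3 was far above the other CTRL libraries, of which replicate 1 lay above all knockdown libraries and replicate 2 lay within both knockdown groups. The log2 fold change was -0.72 ± 0.27 in SG1 (edgeR adjusted p of 0.913), -0.81 ± 0.27 in SG3 (adjusted p of 1) and -0.76 ± 0.22 for their mean (adjusted p of 1). The exact permutation p of that mean comparison was 0.0476, two-sided and unadjusted. Without CTRL replicate 3 the log2 fold change was -0.29 in SG1, -0.38 in SG3 and -0.34 for the mean. Without the low-count filter the adjusted p was 0.0291 in SG1 and 0.00276 for the mean. SG1 differed from SG3 by a log2 fold change of 0.09 ± 0.27. SCAP, the escort of SREBP2, had group means of 126, 134 and 130.5 CPM in SG1, SG3 and CTRL, with log2 fold changes of -0.05 in SG1 and 0.03 in SG3. INSIG2, the INSIG form described as independent of SREBP2, had means of 71.6, 66.2 and 66.8 CPM, with log2 fold changes of 0.10 and -0.01.

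Of the 8 genes of the mevalonate steps, 7 had a negative log2 fold change in SG1 and 8 in SG3, with medians of -0.18 and -0.15. FDPS, which makes farnesyl diphosphate, had 34.3, 35.4 and 32.6 CPM in SG1, 27.98, 36.9 and 37.2 CPM in SG3, and 38.6, 39.7 and 39.6 CPM in CTRL. Both knockdown groups lay below the tight CTRL values, with log2 fold changes of -0.20 ± 0.15 in SG1 and -0.21 ± 0.15 in SG3 (edgeR adjusted p of 0.913 and 1). For their mean it was -0.21 ± 0.12 (adjusted p of 1, exact permutation p of 0.0357, two-sided and unadjusted). FDPS is given in full because its libraries did not overlap, which by itself makes that permutation p small, so the p adds no support. Without SG3 replicate 1, the low library, FDPS had -0.058 in SG3 and -0.13 for the mean.

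PMVK, the phosphomevalonate kinase, had 13.7, 12.1 and 10.1 CPM in SG1, 7.96, 19.3 and 20.3 CPM in SG3, and 21.1, 20.3 and 14.1 CPM in CTRL. SG1 lay just below CTRL, while SG3 spanned the whole range. The log2 fold change was -0.63 ± 0.29 in SG1 and -0.22 ± 0.28 in SG3 (adjusted p of 0.913 and 1). MVK, the mevalonate kinase, had 13.6, 11.96 and 12.7 CPM in SG1, 11.8, 15.2 and 15.9 CPM in SG3, and 15.7, 14.7 and 13.9 CPM in CTRL, with log2 fold changes of -0.21 ± 0.17 in SG1 (adjusted p of 0.913) and -0.05 ± 0.17 in SG3.

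The other mevalonate genes overlapped CTRL in both groups. HMGCS1, the cytosolic HMG-CoA synthase, averaged 23.7, 20.3 and 24.5 CPM in SG1, SG3 and CTRL. IDI1, the isopentenyl diphosphate isomerase, averaged 42.3, 42.5 and 47.2 CPM, and MVD, the mevalonate diphosphate decarboxylase, 12.8, 15.98 and 16.6 CPM. ACAT2, a cytosolic thiolase, averaged 39.6, 40.1 and 44.4 CPM. GGPS1, which makes geranylgeranyl diphosphate for protein prenylation, averaged 9.53, 8.47 and 8.67 CPM and was the only mevalonate gene with a positive log2 fold change in SG1, 0.14 ± 0.24.

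Of the 11 genes of the sterol steps, 10 had a negative log2 fold change in SG1 and 10 in SG3, with medians of -0.24 and -0.16. DHCR7, which makes cholesterol from 7-dehydrocholesterol, had 63.4, 61.4 and 63.4 CPM in SG1, 60.7, 75.97 and 71.5 CPM in SG3, and 92.6, 73.5 and 70.1 CPM in CTRL. The SG1 values were nearly equal and all lay below CTRL, with a log2 fold change of -0.33 ± 0.14 (edgeR adjusted p of 0.913). Without CTRL replicate 1 it was -0.21. In SG3 it was -0.18 ± 0.14 with overlap.

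EBP, the sterol isomerase, had 24.0, 22.2 and 16.5 CPM in SG1, 17.8, 26.3 and 23.9 CPM in SG3, and 27.5, 26.8 and 26.2 CPM in CTRL. Its log2 fold change was -0.36 ± 0.18 in SG1 (adjusted p of 0.913) and -0.24 ± 0.18 in SG3, and without SG1 replicate 3 it was -0.21 in SG1. CYP51A1 had 1.54, 1.45 and 1.80 CPM in SG1, 1.41, 3.98 and 2.80 CPM in SG3, and 3.73, 3.75 and 1.92 CPM in CTRL, from 71 to 75 counts per SG1 library, 74 to 187 in SG3 and 93 to 185 in CTRL. The SG1 libraries were close together, and the SG3 and CTRL groups each held 1 library at the SG1 level. The log2 fold change was -0.97 ± 0.37 in SG1 (adjusted p of 0.913) and -0.20 ± 0.36 in SG3, within the uncertainty from its shared exons.

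The remaining sterol genes overlapped CTRL in both groups. SQLE, the squalene epoxidase, was steady at 17.8 to 18.8 CPM in SG1, 17.3 to 19.5 in SG3 and 17.8 to 22.3 in CTRL. LSS, which closes the sterol ring, averaged 58.8, 68.0 and 73.6 CPM in SG1, SG3 and CTRL, and FDFT1, the squalene synthase, 36.9, 38.5 and 42.7 CPM. TM7SF2, MSMO1, NSDHL, HSD17B7 and SC5D, enzymes between lanosterol and 7-dehydrocholesterol, had log2 fold changes of -0.31 to 0.07 in SG1 and -0.27 to 0.02 in SG3.

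None of the 4 transport and storage genes separated from CTRL. STARD4, a carrier of cholesterol between membranes and an SREBP2 target, had 24.1, 28.3 and 21.5 CPM in SG1, 35.9, 19.3 and 18.9 CPM in SG3, and 26.5, 22.2 and 40.5 CPM in CTRL. The high libraries, SG3 replicate 1 and CTRL replicate 3, are those that stand apart on the first principal component. NPC1, the lysosomal membrane exporter that works with NPC2, had 150.1, 214 and 147 CPM in SG1, 138, 155 and 157 CPM in SG3, and 138, 148 and 153 CPM in CTRL. SG1 replicate 2 was the high one, and the log2 fold changes were 0.22 ± 0.15 in SG1 and 0.03 ± 0.15 in SG3. NPC2 and SOAT1 had log2 fold changes of -0.25 and 0.17 in SG1 and -0.14 and -0.02 in SG3.

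The LXR receptor genes overlapped CTRL in both groups: NR1H2, which encodes LXR beta, averaged 66.2, 77.9 and 76.4 CPM in SG1, SG3 and CTRL, and NR1H3, which encodes LXR alpha, averaged 9.49, 9.90 and 10.1 CPM. The most negative log2 fold change of the list, in SG1 and in SG3, was that of an efflux target. ABCG1 (ENSG00000160179, chromosome 21, 42199689 to 42297244), which exports cholesterol to high-density lipoprotein, had 0.337, 3.40 and 0.479 CPM in SG1, 1.94, 1.11 and 1.83 CPM in SG3, and 3.71, 3.91 and 5.21 CPM in CTRL. These rest on 16, 166 and 20 counts in SG1, 102, 52 and 76 in SG3, and 168, 193 and 253 in CTRL. All 6 knockdown libraries were below CTRL, but SG1 replicate 2 came within reach of the CTRL values.

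For ABCG1 the log2 fold change was -1.59 ± 0.60 in SG1 and -1.39 ± 0.60 in SG3, with edgeR adjusted p-values of 0.913 and 1. For their mean it was -1.49 ± 0.49, with adjusted p of 1 and an exact permutation p of 0.0238, two-sided and unadjusted. The SG1 call depends on a single library and on the filter and weighting: without SG1 replicate 2 the log2 fold change was -3.38 in SG1 (adjusted p of 0.0121) and -2.37 for the mean (adjusted p of 0.00956). Without the low-count filter the adjusted p was 0.00111 in SG1 and 0.000149 for the mean, and with quality weights in limma-voom it was 0.045 in SG1. Between SG1 and SG3 it was -0.20 ± 0.61.

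ABCA1 (ENSG00000165029, chromosome 9, 104781002 to 104928237, minus strand), which loads cholesterol onto apolipoprotein A-I, had 35.8, 144 and 37.9 CPM in SG1, 71.2, 56.1 and 41.6 CPM in SG3, and 102, 74.3 and 84.3 CPM in CTRL. Within SG1, replicates 1 and 3 were the lowest of all 9 libraries and replicate 2 the highest. The log2 fold change was -0.26 ± 0.40 in SG1 (edgeR adjusted p of 0.946), and it ran from -1.23 to 0.05 when single libraries were left out. In SG3, where no library overlapped CTRL, it was -0.62 ± 0.40 (adjusted p of 1). For their mean it was -0.44 ± 0.34, with adjusted p of 1 and an exact permutation p of 0.238, two-sided and unadjusted. Between SG1 and SG3 it was 0.37 ± 0.40.

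MYLIP (ENSG00000007944, chromosome 6, 16129125 to 16148248) had 13.8, 20.7 and 12.99 CPM in SG1, 16.3, 16.4 and 14.6 CPM in SG3, and 20.8, 21.2 and 22.9 CPM in CTRL. All knockdown libraries were below CTRL, SG1 replicate 2 only just. The log2 fold change was -0.45 ± 0.18 in SG1 and -0.45 ± 0.18 in SG3 (edgeR adjusted p of 0.913 and 1). For their mean it was -0.45 ± 0.16, with adjusted p of 1 and an exact permutation p of 0.0238, two-sided and unadjusted. Between SG1 and SG3 it was 0.0033 ± 0.18.

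**Figure D3:**
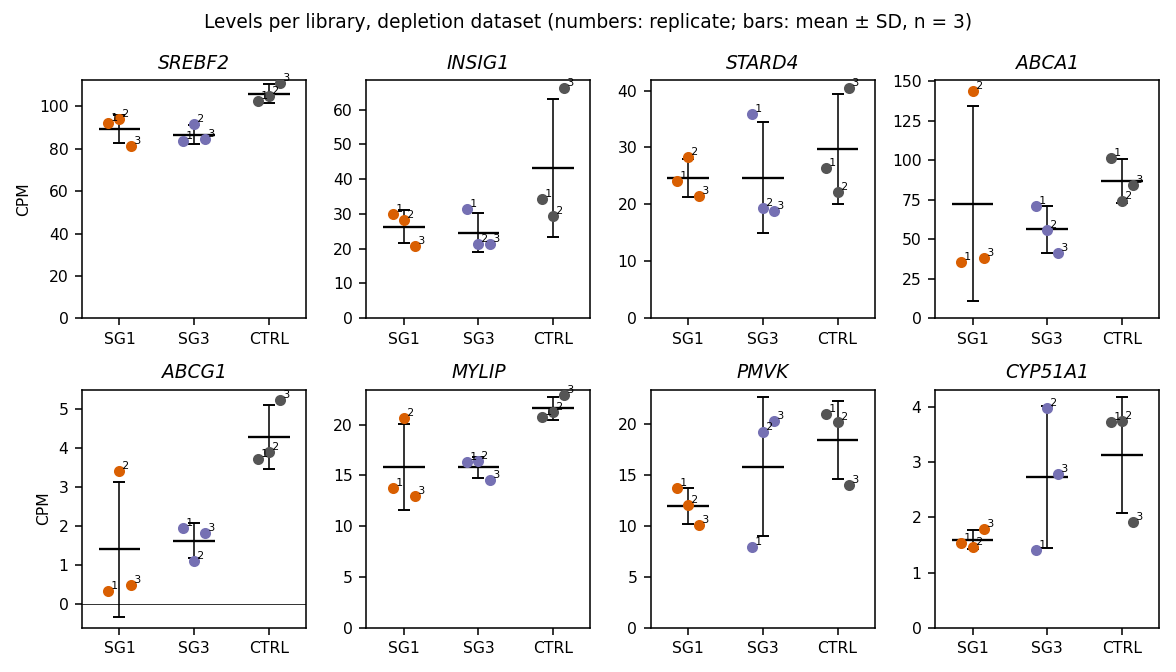
CPM of 8 genes in every depletion library from a zero baseline, SG1, SG3 and CTRL from left to right; points are libraries with their replicate number and bars are the mean ± SD (n = 3). SREBF2 and MYLIP separate the knockdown groups from CTRL, SG1 replicate 2 stands at 144 CPM for ABCA1 against 35.8 and 37.9 in the other SG1 libraries, and CTRL replicate 3 stands at 66.1 CPM for INSIG1.

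SG1 replicate 2 was at least 1.4 times the next highest SG1 library for ABCA1, ABCG1, MYLIP and NPC1, 4 of the 32 genes or 12.5%, beside 5.5% of all genes. In a second pattern, CTRL replicate 3 and SG3 replicate 1 were each the highest of their group for 11 of the 32 genes, or 34.4%, beside 25.7% of all genes. Those 11 are INSIG1, INSIG2, HMGCS1, IDI1, GGPS1, SQLE, MSMO1, SC5D, STARD4, SOAT1 and ABCG1. Both were the lowest of their group for 10 genes, or 31.2%, beside 22.5% of all genes: MVK, PMVK, MVD, LSS, CYP51A1, TM7SF2, NSDHL, EBP, DHCR7 and NR1H2. Both sets hold enzymes of the mevalonate and sterol steps. What sets these libraries apart was not tested.

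A further 47 genes of these pathways outside the list serve SREBP processing, isoprenoid use, other sterol enzymes, uptake and transport, and LXR partners and targets. Of these 46 were tested in the depletion dataset and 0 were called in either knockdown group. Their median log2 fold change was -0.02 in SG1 and -0.04 in SG3. SCARB1, a receptor for high-density lipoprotein, lay below CTRL without overlap in SG1, with a log2 fold change of -0.27. None of the 47 separated in SG3. Between SG1 and SG3, 4 lay higher in SG1 without overlap (RABGGTB, LBR, EBPL and NCEH1) and STARD3 lay lower, with log2 fold changes of 0.22, 0.28, 0.14, 0.37 and -0.33. These are 8.7% of the 46 higher and 2.17% lower, near the 6.26% and 4.55% of all genes. NCEH1 hydrolyses cholesteryl esters, and LBR is a sterol reductase of the nuclear envelope.

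In the libraries labelled KIF20A_OE, enzymes of the synthesis pathway were called in opposite directions. NPC1, NPC2, STARD4 and NR1H2 fell, as did the feedback regulators INSIG1 and INSIG2 and 5 enzymes, whereas SQLE, GGPS1, EBP, PMVK and SCAP rose. By limma on log2(FPM + 1), 5 of the 31 tested genes were called higher, or 16.1%, beside 46.2% of all genes, and 11 were called lower, or 35.5%, beside 23.4% of all genes. After TMM scaling 34.0% of all genes were called higher and 32.6% lower, and 4 and 15 of the 31. The median log2 fold change of all genes was 0.37 on the deposited FPM and 0.04 after TMM. The median over the 31 was -0.14 on FPM and -0.49 after TMM, so relative to the median of all genes the list was lower on both scales.

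**Figure D4:**
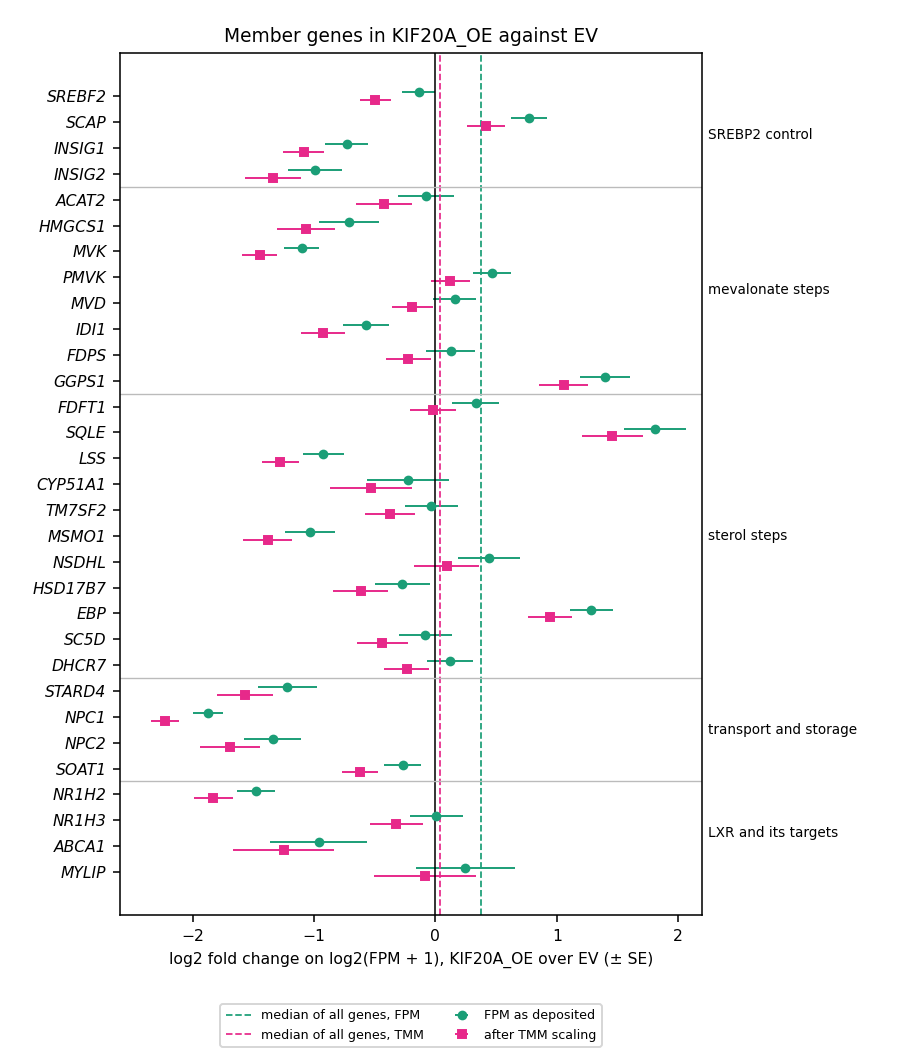
Log2 fold change of each tested gene in KIF20A_OE over EV (± SE) on log2(FPM + 1), for FPM as deposited (circles) and after TMM scaling (squares); dashed lines mark the medians of all genes at 0.37 and 0.04. All 4 transport and storage genes are left of zero on both scales, while SQLE, GGPS1, EBP and SCAP are right of zero on both.

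In the overexpression dataset SREBF2 had 232, 270.5 and 222 FPM in KIF20A_OE and 231, 275 and 291 FPM in EV. The groups overlapped, and the log2 fold change was -0.14 ± 0.13 with adjusted p of 0.383 by limma. After TMM scaling it was -0.49 with adjusted p of 0.00837, so its call depends on the scaling. INSIG1 fell to 65.1, 92.6 and 69.0 FPM in KIF20A_OE, against 111, 116 and 151 FPM in EV (-0.73 ± 0.18, adjusted p of 0.00558). INSIG2 fell to 35.7, 27.5 and 25.4 FPM, against 81.1, 55.0 and 46.4 FPM in EV (-0.99 ± 0.22, adjusted p of 0.00392). SCAP rose to 183, 253 and 185 FPM, against 126, 122 and 111 FPM in EV (0.77 ± 0.15, adjusted p of 0.00188). The 2 INSIG genes lay below EV and SCAP above it without overlap. The share of all genes without overlap was not worked out for this dataset, so separation here and below has no background beside it. With 46.2% of all genes called higher and 23.4% lower by limma, separation of a single gene is not particular to the list.

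Of the 8 mevalonate genes, 2 were called higher (25%) and 3 lower (37.5%), beside 46.2% and 23.4% of all genes. GGPS1 rose to 32.7, 42.6 and 32.5 FPM in KIF20A_OE, against 13.3, 10.0 and 16.1 FPM in EV (log2 fold change 1.398 ± 0.21, limma adjusted p of 0.000366), within the uncertainty from its shared exons. MVK fell to 18.3, 22.8 and 22.3 FPM, against 44.3, 46.5 and 48.4 FPM in EV (-1.10 ± 0.14, adjusted p of 0.000176). The enzyme after it behaved otherwise: PMVK had 36.9, 30.4 and 38.1 FPM in KIF20A_OE and 27.8, 21.99 and 25.5 FPM in EV (0.47 ± 0.16, adjusted p of 0.0264). That call for PMVK was lost after TMM scaling, at a log2 fold change of 0.12 with adjusted p of 0.525, and without EV replicate 2, KIF20A_OE replicate 1 or KIF20A_OE replicate 3 (adjusted p of 0.0798 to 0.0958).

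IDI1 had 69.0, 74.6 and 75.6 FPM in KIF20A_OE and 79.4, 125 and 131 FPM in EV (-0.57 ± 0.19, limma adjusted p of 0.0254). That call ended when EV replicate 2 or 3, or any single KIF20A_OE library, was left out (adjusted p of 0.0596 to 0.0804). HMGCS1 fell to 79.8, 113 and 93.8 FPM, against 104, 177 and 205 FPM in EV (-0.71 ± 0.25, adjusted p of 0.0305), with KIF20A_OE replicate 2 above EV replicate 1. The HMGCS1 call ended without EV replicate 2, EV replicate 3, KIF20A_OE replicate 1 or KIF20A_OE replicate 3 (adjusted p of 0.0813 to 0.111). FDPS, MVD and ACAT2 were not called, at log2 fold changes of 0.13, 0.16 and -0.08 on FPM. After TMM scaling FDPS and MVD had -0.22 and -0.19.

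Among the 11 sterol genes, 2 were called higher and 2 lower, 18.2% each. Opposite calls fell on consecutive enzymes, in a comparison that called 46.2% of all genes higher and 23.4% lower. SQLE rose to 106, 165 and 163 FPM in KIF20A_OE, against 27.4, 45.6 and 49.6 FPM in EV (log2 fold change 1.81 ± 0.26, limma adjusted p of 0.000285). LSS, the next enzyme, fell to 81.5, 66.8 and 71.8 FPM, against 117, 133 and 175 FPM in EV (-0.92 ± 0.17, adjusted p of 0.00117). Neither gene's groups overlapped.

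MSMO1, the sterol methyl oxidase, fell to 40.2, 60.7 and 64.1 FPM in KIF20A_OE, against 90.8, 119.5 and 127 FPM in EV (-1.03 ± 0.21, adjusted p of 0.00208). EBP rose to 27.8, 32.6 and 40.2 FPM, against 12.7, 14.2 and 12.2 FPM in EV (1.29 ± 0.18, adjusted p of 0.000249). The other 7 sterol genes were not called on FPM, with adjusted p-values from 0.15 to 0.893. After TMM scaling HSD17B7 was called lower (-0.61, adjusted p of 0.0412), and FDFT1 and DHCR7 had -0.02 and -0.24, against 0.33 and 0.12 on FPM.

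All 4 transport and storage genes had negative log2 fold changes on both scales. On FPM 3 were called lower, or 75%, beside 23.4% of all genes. NPC1 fell to 48.8, 52.9 and 42.8 FPM in KIF20A_OE, against 179, 171 and 187 FPM in EV. Its log2 fold change of -1.88 ± 0.12 (limma adjusted p of 3.2e-06) was the most negative of the list. NPC2 fell to 67.7, 57.7 and 66.8 FPM, against 228, 171 and 112 FPM in EV (-1.34 ± 0.23, adjusted p of 0.00101). STARD4 fell to 31.6, 30.1 and 35.8 FPM, against 51.6, 83.3 and 106 FPM in EV (-1.22 ± 0.24, adjusted p of 0.00198). SOAT1 had 92.3, 63.1 and 81.0 FPM in KIF20A_OE and 93.1, 91.6 and 97.2 FPM in EV (-0.27 ± 0.15, adjusted p of 0.147), and after TMM scaling it was called lower (-0.62, adjusted p of 0.0062).

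The LXR receptor gene NR1H2 fell to 45.8, 34.4 and 49.6 FPM in KIF20A_OE, against 128, 117 and 118 FPM in EV (log2 fold change -1.48 ± 0.15, limma adjusted p of 4.98e-05). NR1H3 stayed low in both groups, 10.3, 12.2 and 11.2 FPM in KIF20A_OE and 8.76, 15.1 and 10.4 FPM in EV (0.01 ± 0.22). ABCA1 had 3.94, 1.94 and 3.11 FPM in KIF20A_OE and 13.8, 4.59 and 4.35 FPM in EV. EV replicate 1 was high, the groups did not overlap, and the log2 fold change of -0.96 ± 0.40 missed the threshold (adjusted p of 0.0599). It passed after TMM scaling (-1.25, adjusted p of 0.027), without EV replicate 2 (-1.19, adjusted p of 0.0465) and without EV replicate 3 (-1.22, adjusted p of 0.0334). Without EV replicate 1, the high library, it was -0.49 (adjusted p of 0.15), and without KIF20A_OE replicate 2 it was -0.76 (adjusted p of 0.191).

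MYLIP had 15.3, 23.6 and 14.3 FPM in KIF20A_OE and 27.8, 7.68 and 13.8 FPM in EV (0.25 ± 0.41, limma adjusted p of 0.608), and its sign changed to -0.09 after TMM scaling. ABCG1 was below the minimum level for the test. It had 17, 32 and 17 fragments in KIF20A_OE, against 0, 0 and 0 in EV. Over a floor of 3 fragments for the EV group as a whole, its pooled level was 22.7-fold higher in KIF20A_OE on FPM. That ratio is not a lower bound, since it leaves out the counting error of the KIF20A_OE fragments and the library spread. The 2 exporters thus lay on opposite sides of EV in the same libraries, both at low levels.

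**Figure D5:**
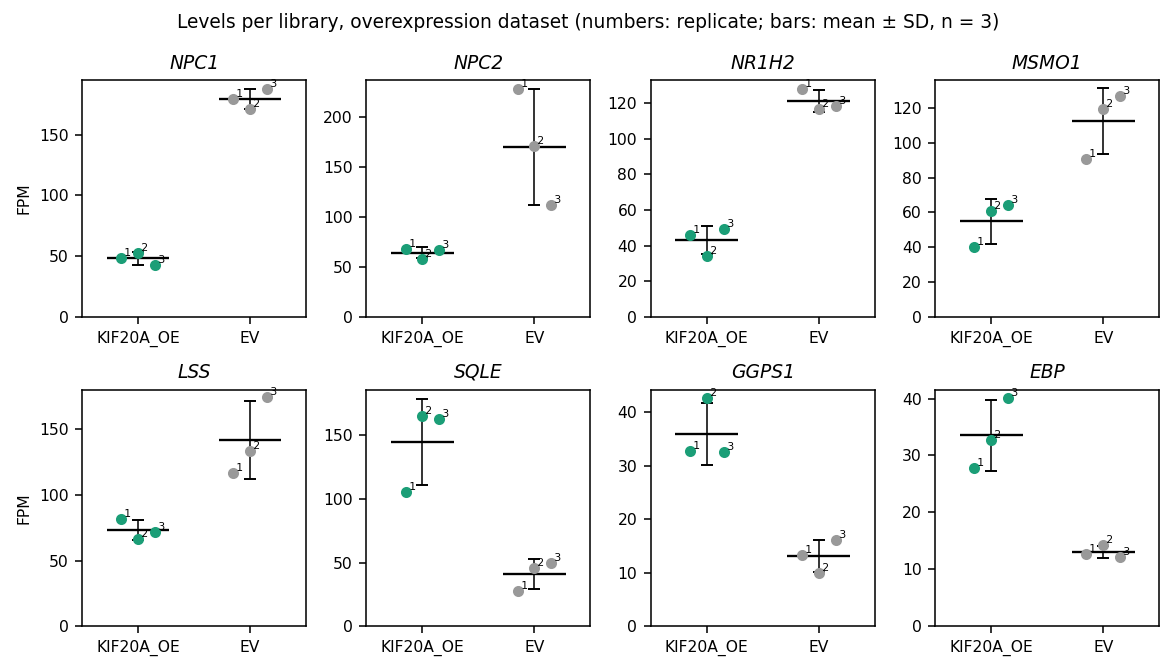
FPM of 8 genes in every overexpression library from a zero baseline, KIF20A_OE left and EV right; points are libraries with their replicate number and bars are the mean ± SD (n = 3). NPC1, NPC2, NR1H2, MSMO1 and LSS are below EV in every KIF20A_OE library, and SQLE, GGPS1 and EBP are above EV in every one.

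Of the 47 other pathway genes, 45 were tested in this dataset. On FPM 24 were called higher (53.3%) and 12 lower (26.7%), near the 46.2% and 23.4% of all genes. After TMM scaling 14 were called higher and 14 lower, 31.1% each, near the 34.0% and 32.6% of all genes. The median log2 fold change of the 45 was 0.45 on FPM, beside 0.37 for all genes. All 8 LXR partners and targets were called, 3 higher (ABCA7, LPCAT3 and TTC39B) and 5 lower, among them RXRA, RXRB and NCEH1, beside 46.2% of all genes higher and 23.4% lower. After TMM scaling 1 was called higher and 5 lower. NCEH1 averaged 13.98 FPM in KIF20A_OE and 248 FPM in EV, a log2 fold change of -4.08 (limma adjusted p of 4.1e-07). Of 12 uptake and transport genes tested, 5 were called higher (41.7%) and 4 lower (33.3%) on FPM. After TMM scaling these were 3 (25%) and 4 (33.3%). GRAMD1B, which moves cholesterol from the plasma membrane to the endoplasmic reticulum, averaged 20.7 FPM in KIF20A_OE and 0.393 FPM in EV (4.01, adjusted p of 2.7e-06), and SCARB1 averaged 61.4 FPM in KIF20A_OE and 19.6 FPM in EV (1.596). The lipoprotein receptors LRP1, VLDLR and LRP8 were called lower (-1.38, -1.48 and -0.61).

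The other sterol enzymes were called in 5 of 5 tested cases on FPM, 4 higher (80%) and 1 lower (20%). Of all genes 46.2% were called higher and 23.4% lower. LBR, which can stand in for TM7SF2 as the sterol reductase, averaged 268 FPM in KIF20A_OE and 95.4 FPM in EV (log2 fold change 1.498, limma adjusted p of 5.1e-05). CYP27A1, which oxidises the cholesterol side chain, averaged 1.26 FPM in KIF20A_OE and 10.2 FPM in EV (-2.27, adjusted p of 0.00027). Isoprenoid users were called higher in 7 of 11 cases (63.6%) and lower in 0 on FPM. After TMM scaling these were 3 (27.3%) and 2 (18.2%). SREBP processing genes were called higher in 5 of 9 cases (55.6%) and lower in 2 (22.2%) on FPM, near the shares of all genes. After TMM scaling these were 3 (33.3%) and 2 (22.2%), beside 34.0% and 32.6% of all genes.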

How the data were processed

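RNA-seq libraries labelled MDA-MB231 were grouped by their titles, 9 in a depletion and 6 in an overexpression dataset. For depletion the authors gave unnormalised counts of each gene. The overexpression values carry the name FPKM per the labels, yet every deposited column sums to 1000000 and holds whole multiples of one step, so they are treated as FPM, a CPM of fragments without length correction. Whole fragments were recovered for 100% of values within 0.001. The planned test on the log2 scale suits FPM. The submitters' processing notes name Trim Galore 0.6.4, STAR 2.7.3a, featureCounts in Subread 1.6.3, limma 3.50.3 and hg38. Settings, strand and annotation were not stated there.

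Counts were tested with edgeR 4.0.16 (quasi-likelihood, TMM, default filter, 16786 genes, R 4.3.3) in a single fit of 9 libraries. FPM values were tested with limma 3.58.1 (trend, robust) on log2(FPM + 1) for the 15265 genes averaging 1 FPM or more, a scale that understates changes of low genes. P-values were adjusted by Benjamini-Hochberg over all genes tested, with a threshold of 0.05. The tests were also run on simulated data with known changes, and the outcome is not given here. Those data had no split of libraries within groups and far fewer changed genes than were called in KIF20A_OE. They therefore do not show how well the tests perform on these libraries. Permutation tests were exact, on log2(value + 1). With 3 against 3 libraries their smallest p is 0.1. The datasets were scaled separately and not tested against each other.

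Where no reads fell on a gene, the floor was 3 counts, 0.0588 to 0.0734 CPM or 0.135 to 0.188 FPM per library, for counting error only. In the depletion libraries 62.9 to 68.0% of counts between 10 and 50 were even, so halved counts were an alternative. GENCODE 29 on GRCh38 held 96.3% of identifiers for depletion and 97.3% for overexpression, which gave coordinates and merged exon lengths. Overlapping and antisense genes may share reads. The genes and lists were chosen with earlier results of these data known. Fold changes, errors and adjusted p-values are given for SREBF2, INSIG1, ABCA1, ABCG1 and MYLIP and for genes without overlap between the libraries compared. HMGCS1, SOAT1 and HSD17B7 in KIF20A_OE fall outside that rule and were added after their values were seen. Alternatives were DESeq2 1.42.0, RLE scaling, no low-count filter, limma-voom with and without quality weights, other pseudocounts, TMM scaling of FPM, edgeR on recovered fragments, a replicate block and single libraries left out. Values of some other pathway genes are not reported here.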

Additional observations from a re-analysis of the deposited data

How the results depend on the processing

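In each depletion comparison 0 members were called by edgeR, by DESeq2 and with the replicate block. Without the low-count filter 2 were called lower in SG1 and 2 for the mean of SG1 and SG3. With voom quality weights 1 was called lower in SG1 and 2 in SG1 against SG3. Leaving out single libraries gave 0 to 1 called lower in SG1 and 0 to 1 for the mean. At an unadjusted p under 0.05, quality weights gave 11 lower and 1 higher in SG1, 8 lower for the mean, and 6 lower and 3 higher in SG1 against SG3. In that last comparison DESeq2 gave 1 lower, and no low-count filter gave 2 lower and 1 higher. With single libraries left out the lower counts were 1 to 8 in SG1, 0 to 5 in SG3, 3 to 7 for the mean and 0 to 6 in SG1 against SG3, and the higher counts were 0 to 1 in SG1 and 0 to 1 in SG1 against SG3. Over all genes in SG1, edgeR called 0 higher and 0 lower, DESeq2 3 and 0, the fit without the low-count filter 26 and 65 of 31103, and quality weights 15 and 45. In SG1 against SG3 these were 0 and 0, 2 and 3, 23 and 54, and 796 and 891. In SG3 they were 0 and 0, 3 and 1, 5 and 3, and 0 and 1, and for the mean 0 and 0, 4 and 1, 11 and 9, and 3 and 2. The cause of these shifts was not tested.

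Median log2 fold changes in KIF20A_OE against EV after TMM scaling were -0.49 for all members, -0.79 for SREBP2 control, -0.32 for mevalonate steps, -0.38 for sterol steps, -1.63 for transport and storage and -0.79 for LXR and its targets. With edgeR on recovered fragments they were -0.50 for all members, -0.81 for SREBP2 control, -0.37 for mevalonate steps, -0.44 for sterol steps and -1.72 for transport and storage. Without a filter on low values the LXR median was 0.0067. With quality weights the mevalonate median was -0.081 in SG1, -0.10 in SG1 against SG3 and -0.058 for the mean, and the sterol median in SG1 against SG3 was -0.19. With single libraries left out, medians in KIF20A_OE ran -0.27 to -0.069 for all members, -0.55 to -0.33 for SREBP2 control, -0.19 to 0.17 for mevalonate and -0.21 to 0.19 for sterol steps. In SG1 they ran -0.25 to -0.10 for mevalonate, -0.31 to -0.17 for sterol steps and -0.69 to -0.15 for LXR targets. In SG3 they ran -0.21 to -0.079 for all members and -0.18 to -0.0395 for mevalonate. In SG1 against SG3 they ran -0.14 to 0.055 for all members, -0.15 to 0.0755 for mevalonate, -0.26 to -0.0043 for sterol steps and -0.08 to 0.16 for transport.

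The sign of MYLIP in SG1 against SG3, 0.0033 in edgeR, turned to -0.0091 with DESeq2, -0.0092 with RLE, -0.011 with halved counts, -0.0232 with voom, -0.0331 with quality weights, -0.033 without the low-count filter, -0.0198 with only the libraries compared and -0.016 with the replicate block. MYLIP in KIF20A_OE was -0.089 after TMM and -0.27 with edgeR on fragments. Single libraries turned signs of MYLIP in KIF20A_OE (-0.17 to 0.70), of ABCA1 in SG1 (-1.23 to 0.053) and, in SG1 against SG3, of MYLIP (-0.26 to 0.13), ABCA1 (-0.63 to 0.68), ABCG1 (-2.02 to 0.25), INSIG1 (-0.0201 to 0.27) and SREBF2 (-0.0226 to 0.10). Correlations of same-numbered libraries were -0.22 to 0.431 in the depletion dataset, where not every library correlated best with its own number. In the overexpression dataset they were 0.014 to 0.058, under the 0.1 taken to show pairing, although each library correlated best with its own number, a hint from the data and not the design. With the replicate block ABCA1 in KIF20A_OE was -0.96 (limma, adjusted p 0.0189).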

Other observations

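Some genes outside the list, picked after their values were seen, followed the same library within SG1 as ABCA1, ABCG1, MYLIP and NPC1. SREBF1, another LXR target, had 104, 163 and 88.1 CPM in SG1 and 202, 154 and 160.5 CPM in CTRL. Its SG3 values were 88.4, 125 and 108 CPM. SCD, the stearoyl-CoA desaturase, had 66.0, 132 and 61.2 CPM in SG1 and 176, 128 and 269 CPM in CTRL. Its SG3 values were 87.7, 67.8 and 56.4 CPM. NCEH1 had 316, 421 and 321 CPM in SG1 and 262, 279.8 and 356 CPM in CTRL. Its SG3 values were 289, 251 and 276 CPM. For each of these genes SG1 replicate 2 was the highest of its group, though for NCEH1 it was under 1.4 times the next SG1 library. The share of all genes for which that library was the highest was not worked out, and no test was made.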
